A study of Homo sapiens with 12 samples.

Results

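The 10 genes described here are the transcription factor NRF2 (gene symbol NFE2L2), its inhibitor KEAP1, the KEAP1-binding protein p62 (SQSTM1) and the NRF2 target genes HMOX1, NQO1, TXNRD1, SRXN1, OSGIN1, ABCC2 and AKR1C1. They were picked by gene symbol, with no measured value in the rule, though earlier results of these data were known. All 10 were found among the 23710 genes of the count tables. All 10 also passed the filter on low counts with each siRNA. The study profiled RCC4, an established human clear cell renal carcinoma line, by poly(A) RNA sequencing 72 hours after transfection with 40 pmol of an siRNA. Experiment 1, sequenced over 4 lanes, holds 3 libraries of siMESH1-CDS, an siRNA against the coding sequence of MESH1, and 3 of the non-targeting control siNT. Experiment 2, on a single lane, holds 3 libraries of siMESH1-7002, an siRNA against the 3'UTR of MESH1, and 3 further siNT libraries. All cells, controls included, received Lipofectamine RNAiMAX and an siRNA and carried no other treatment, and each siRNA was set only against the siNT of its own experiment.

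NRF2 is the main activator of the genes that keep cells reduced. In resting cells KEAP1, an adaptor of the CUL3 ubiquitin ligase, binds NRF2 protein and hands it to the proteasome, and oxidants or electrophiles that modify KEAP1 let NRF2 accumulate and bind, with a small MAF protein, to antioxidant response elements in its target genes. NRF2 is thus governed largely at the protein level, which RNA counts do not measure. MESH1, the gene HDDC3, encodes a hydrolase that removes a phosphate from NADPH, the reducing agent on which several products of the target genes depend, and the comparison asks how the mRNA of these genes stood after MESH1 was silenced.

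The siRNA targets are shown because they define both knockdowns. Each sequence matched only HDDC3 among the transcripts of GENCODE release 29 (GRCh38), the first in coding sequence at chr15:90932064-90932082 and the second in the 3'UTR at chr15:90931109-90931129, both on the minus strand. Written 5′ to 3′ as the target strand, with capitals marking the 7 bases that pair with the seed of the guide if the guide is the plain complement of the target, they are as follows.

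siMESH1-CDS target: gggaaucacugACAUUGUg
siMESH1-7002 target: ctgaaggtctcctGCTAACTa

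HDDC3 fell with both siRNAs, from 7.48 ± 0.913 to 0.158 ± 0.158 CPM (counts scaled to library size, mean ± SD, n = 3) with siMESH1-CDS and from 13.2 ± 0.630 to 1.38 ± 0.291 CPM with siMESH1-7002. The tables held 34063155 to 49134129 reads in genes per library in experiment 1 and 24787804 to 31651125 in experiment 2. Replicates spread more in experiment 1 (biological coefficient of variation 0.299) than in experiment 2 (0.0490). This spread lay mainly among the siMESH1-CDS libraries. Between pairs of replicates, the chi-square of counts per degree of freedom was 68.9 to 291 for siMESH1-CDS and 3.82 to 15.8 for its siNT. In experiment 2 it was 2.29 to 4.02 for siMESH1-7002 and 2.66 to 13.5 for its siNT. The kidney lineage factor PAX8 was present in every group at means of 58.4 to 443 CPM, while PTPRC, CD3E, PECAM1 and CDH5 had at most 2 reads in any library and ALB at most 11, and of the 6 markers of other cell types only CD68 passed the filter on low counts. CD68, a lysosomal protein used as a macrophage marker, was called with both siRNAs, higher with siMESH1-7002 (log2 fold change 0.41, edgeR adjusted p = 1.35e-06) and lower with siMESH1-CDS (-3.94, or -2.58 after the correction described next), and its part in the results was not tested. The change with siMESH1-CDS followed the GC content of the transcripts. In 10 equal groups of genes ordered by GC content, its median log2 fold change was 1.09 where GC content was lowest and -3.70 where it was highest, while for siMESH1-7002 these medians were 0.14 and -0.09. The 10 genes span this range, from 42.4% GC for AKR1C1, 43.6% for TXNRD1, 44.9% for ABCC2, 45.6% for NFE2L2 and 46.0% for NQO1 to 53.6% for SRXN1, 58.0% for SQSTM1, 58.1% for HMOX1, 60.3% for KEAP1 and 63.4% for OSGIN1. For this reason each change of the 10 genes with siMESH1-CDS is given a second time after a correction. The correction offsets every library by a smooth of its log2 CPM on GC content. For single genes its shift could exceed or fall short of the median change of genes of like GC content. With siMESH1-CDS, KEAP1, in the group with a median of -2.56, moved from -3.37 to -0.17. OSGIN1, in the group with a median of -3.70, moved from -4.24 to -0.91. Corrected signs and calls thus depend on the size of this shift. For HDDC3 the log2 fold change with siMESH1-CDS was -5.56, or -3.73 after this correction. How much of each change belongs to the knockdown and how much to the GC trend of these libraries cannot be told apart beyond these values.

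**Figure D1:**
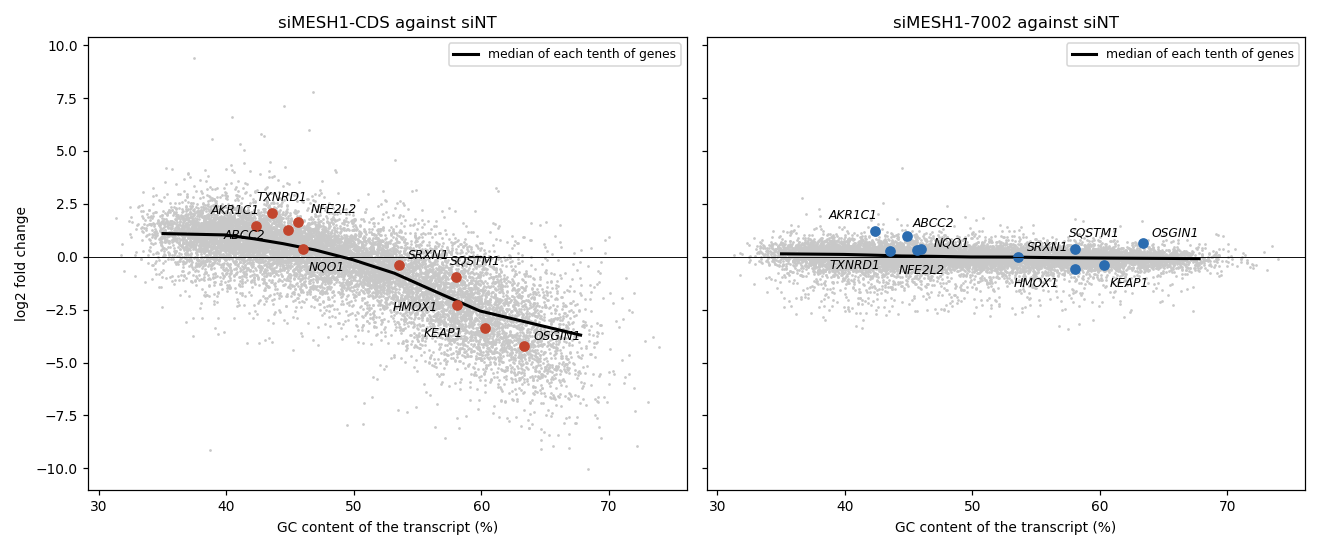
Change of every gene with a known GC content against the GC content of its transcript (%), for siMESH1-CDS (left) and siMESH1-7002 (right), as log2 fold change against siNT of the same experiment. The line joins the medians of 10 equal groups of genes and the large labelled points are the 10 genes of the NRF2 pathway, of which KEAP1, HMOX1 and OSGIN1 lie near or below the falling line with siMESH1-CDS.

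Calls were made with edgeR's quasi-likelihood test at an adjusted p-value (Benjamini-Hochberg over all genes tested) under 0.05. With siMESH1-7002, 9 of the 10 genes were called, 7 higher (NFE2L2, SQSTM1, NQO1, TXNRD1, OSGIN1, ABCC2, AKR1C1) and 2 lower (KEAP1, HMOX1). Of all 13568 genes tested, 53.3% were called, 26.6% higher and 26.7% lower. With siMESH1-CDS, 9 of the 10 were called as well, 5 higher (NFE2L2, NQO1, TXNRD1, ABCC2, AKR1C1) and 4 lower (KEAP1, SQSTM1, HMOX1, OSGIN1), where 74.1% of 13395 genes were called, 36.9% higher and 37.2% lower. Scaling by library size alone called 8 there, 3 higher and 5 lower with SRXN1 among the latter (all genes 30.7% and 41.9%), and DESeq2 called 8, 4 in each direction (all genes 35% and 39.3%). After GC correction 5 of the 10 were called with siMESH1-CDS, all higher (NFE2L2, SQSTM1, TXNRD1, SRXN1, ABCC2), against 67% of all genes, 40.3% higher and 26.7% lower. With siMESH1-7002 the corrected fit called all 10, 8 higher and KEAP1 and HMOX1 lower, against 62.9% of all genes, 39.4% higher and 23.5% lower. The median change of the 10 genes was 0.34 with siMESH1-7002 (all genes 0.01) and -0.01 with siMESH1-CDS (all genes -0.05), and 0.39 (all genes 0.08) and 0.78 (all genes 0.17) after GC correction. In bulk RNA, less RNA per cell and fewer cells that express a gene cannot be told apart.

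The groups did not overlap for 9 of the 10 genes with siMESH1-7002 (59.5% of all genes) and for all 10 with siMESH1-CDS (82.7% of all genes). An exact two-sided permutation test of 3 against 3 libraries cannot go below p = 0.1, which each of these genes reached.

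**Figure D2:**
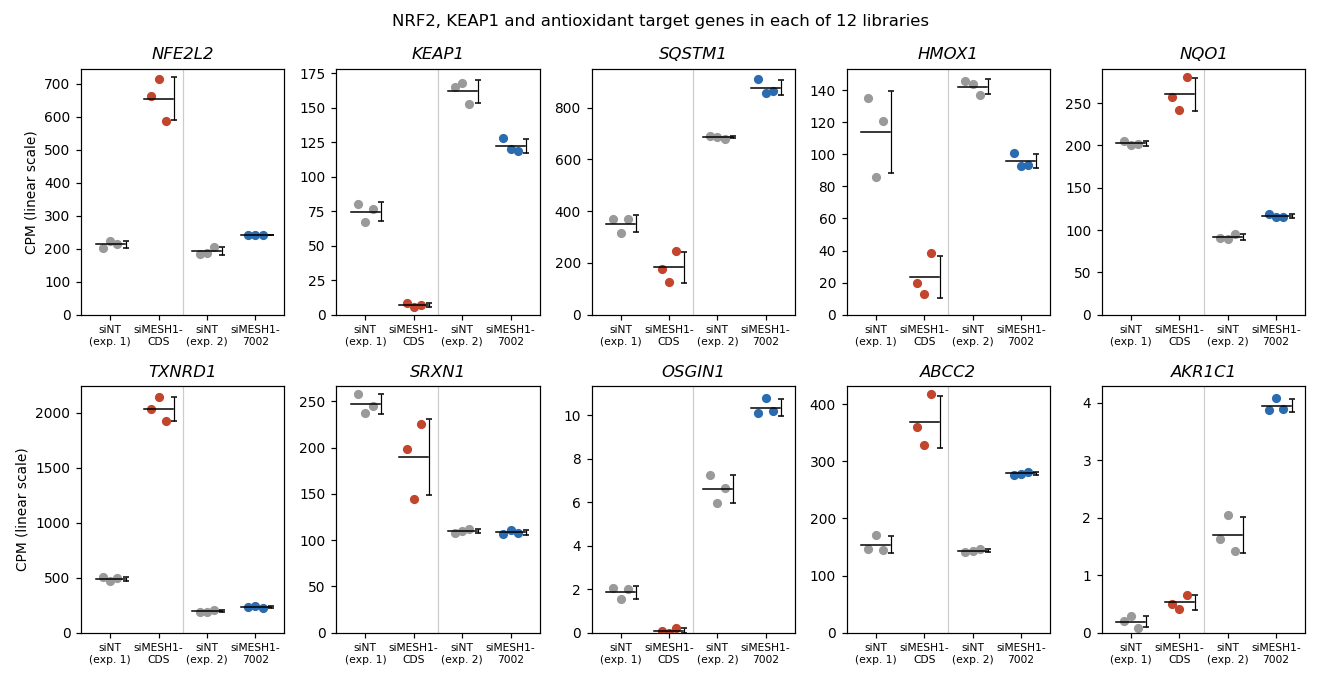
CPM of each gene (vertical axes, linear and starting at 0) in all 12 libraries, with siNT of each experiment in grey, siMESH1-CDS in red and siMESH1-7002 in blue. Points are libraries, horizontal lines are means of 3 and bars are ± SD, and SRXN1 with siMESH1-7002 is the only comparison in which the groups overlap.

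NFE2L2 (chromosome 2, 177227595 to 177392697, minus strand) rose with each siRNA. With siMESH1-7002 its mRNA stood at 183, 187 and 206 CPM in the siNT libraries and at 243, 241 and 241 CPM after knockdown. All knockdown libraries lay above all controls, by 1.26-fold on average (log2 fold change 0.33, SE 0.0481, edgeR adjusted p = 2.24e-05). In experiment 1 it stood at 201, 225 and 213 CPM with siNT and at 663, 714 and 586 CPM with siMESH1-CDS. This was a 3.07-fold higher mean with every knockdown library far above every control (log2 fold change 1.62, SE 0.107, edgeR adjusted p = 2.43e-04), and GC correction left it at 1.35 (SE 0.0770).

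KEAP1 (chromosome 19, 10486120 to 10503741, minus strand), the repressor of NRF2, was lower with each siRNA before GC correction. The siNT libraries of experiment 2 had 165, 168 and 153 CPM and those of siMESH1-7002 128, 120.2 and 119 CPM. The knockdown libraries were all below the controls and kept 75.5% of the control mean (log2 fold change -0.40, SE 0.0509, edgeR adjusted p = 4.51e-06, or -0.27 after GC correction and still called). In experiment 1 KEAP1 had 80.2, 66.9 and 76.7 CPM with siNT against 8.44, 5.85 and 7.31 CPM with siMESH1-CDS, resting on 225 to 267 reads per knockdown library. Only 9.65% of the control mean was left (log2 fold change -3.37, SE 0.183, edgeR adjusted p = 2.14e-04). After GC correction the change was -0.17 (SE 0.438, edgeR adjusted p = 0.752) and no call was made.

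SQSTM1 (chromosome 5, 179806398 to 179838078, plus strand) encodes the autophagy receptor p62, which competes with NRF2 for KEAP1 and is itself an NRF2 target. It moved in opposite directions with the siRNAs before GC correction. With siNT in experiment 2 it had 689, 687 and 680.4 CPM and with siMESH1-7002 911, 856 and 863 CPM. Each knockdown library was above each control (1.28-fold, log2 fold change 0.36, SE 0.0401, edgeR adjusted p = 1.31e-06). A single model of all 12 libraries, in which both experiments share 1 estimate of the spread, ended this call (edgeR adjusted p = 0.257). In experiment 1 SQSTM1 had 371, 315 and 369 CPM with siNT and 176, 127 and 245 CPM with siMESH1-CDS. Here the knockdown libraries were lower and spread widely (log2 fold change -0.94, SE 0.241, edgeR adjusted p = 0.0132), and without siMESH1-CDS replicate 1 the call was lost (edgeR adjusted p = 0.0502). GC correction turned the sign, to 1.50 (SE 0.252, edgeR adjusted p = 0.00261).

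HMOX1 (chromosome 22, 35380361 to 35394214, plus strand) encodes heme oxygenase-1, which breaks heme down to biliverdin, iron and carbon monoxide and is a widely used NRF2 target that BACH1 represses. It was the exception among the called targets with siMESH1-7002, since it fell. The siNT libraries had 146, 144 and 137 CPM and the siMESH1-7002 libraries 101, 92.6 and 93.4 CPM. Every knockdown library was below every control, with 67.2% of the control mean left (log2 fold change -0.57, SE 0.0498, edgeR adjusted p = 5.50e-08, or -0.44 after GC correction). The model of all 12 libraries did not call it (edgeR adjusted p = 0.261). With siNT of experiment 1 it had 135, 85.7 and 121 CPM and with siMESH1-CDS 19.9, 12.978 and 38.3 CPM, again without overlap (log2 fold change -2.26, SE 0.429, edgeR adjusted p = 0.00429). After GC correction that change was 0.05 (SE 0.180, edgeR adjusted p = 0.815).

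NQO1 (chromosome 16, 69706996 to 69726951, minus strand), the quinone reductase that uses NADPH or NADH, rose by a similar amount with each siRNA before GC correction. In experiment 2 it had 90.3, 89.8 and 95.8 CPM with siNT and 119, 115 and 115 CPM with siMESH1-7002, with no overlap (1.27-fold, log2 fold change 0.34, SE 0.0484, edgeR adjusted p = 1.68e-05). In experiment 1 it had 205, 200.02 and 202 CPM with siNT and 258, 242 and 281 CPM with siMESH1-CDS. All 3 knockdown libraries were above the controls (1.29-fold, log2 fold change 0.36, SE 0.0858, edgeR adjusted p = 0.00982). GC correction reduced this to 0.14 (SE 0.0689, edgeR adjusted p = 0.117), and scaling by library size alone, which moved the median of all genes with siMESH1-CDS from -0.05 to -0.31, gave 0.10 and no call (edgeR adjusted p = 0.423).

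AKR1C1 (chromosome 10, 4963253 to 4983283, plus strand), an aldo-keto reductase of steroids and carbonyls, had the lowest level per transcript length of the 10 genes in both siNT groups and with siMESH1-7002, and with siMESH1-CDS only OSGIN1 was lower in the mean. It rested on 40 to 52 reads per siNT library and 112 to 121 reads per siMESH1-7002 library, or 1.64, 2.05 and 1.42 CPM against 3.88, 4.09 and 3.895 CPM. The knockdown libraries were all above the controls, 2.32-fold on average (log2 fold change 1.23, SE 0.151, edgeR adjusted p = 3.67e-06). In experiment 1 it had 11, 13 and 4 reads with siNT and 16, 16 and 23 with siMESH1-CDS, or 0.207, 0.288 and 0.0859 CPM against 0.506, 0.416 and 0.662 CPM. The change of 1.43 (SE 0.463, edgeR adjusted p = 0.0306) was lost without siNT replicate 1 or 3 or siMESH1-CDS replicate 1 or 3 (edgeR adjusted p = 0.0659 to 0.0866), with DESeq2 (adjusted p = 0.0642), with scaling by library size (edgeR adjusted p = 0.0690), with the replicate number as a block (edgeR adjusted p = 0.0919) and after GC correction (0.83, edgeR adjusted p = 0.167).

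AKR1C1 shares long stretches of sequence with AKR1C2 and AKR1C3, so that its reads cannot be assigned with certainty. With siMESH1-7002 AKR1C2 had 8.07 ± 1.03 CPM against 4.75 ± 0.246 CPM with siNT and was called higher (n = 3 each, log2 fold change 0.77, SE 0.114, edgeR adjusted p = 2.78e-05). AKR1C3 had 241 ± 7.76 CPM against 157 ± 12.1 CPM and was called higher too (log2 fold change 0.62, SE 0.0537, edgeR adjusted p = 5.79e-08). With siMESH1-CDS AKR1C3 had 122 ± 26.1 CPM against 21.1 ± 1.57 CPM (log2 fold change 2.53, SE 0.190, edgeR adjusted p = 3.02e-04, or 1.85 after GC correction), and AKR1C2 had 0 to 2 reads in every library of experiment 1 and was not tested there. AKR1C1, AKR1C2 and AKR1C3 were thus called higher with siMESH1-7002, as 26.6% of all genes were.

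TXNRD1 (chromosome 12, 104215779 to 104350305, plus strand) encodes thioredoxin reductase 1, which passes electrons from NADPH to thioredoxin. Its rise with siMESH1-CDS was the largest of the 10 genes in CPM and in log2 terms. It had 502, 468 and 495 CPM with siNT and 2029, 2140 and 1926 CPM with siMESH1-CDS. That is 4.16-fold more in the mean, with each knockdown library far above each control (log2 fold change 2.06, SE 0.0925, edgeR adjusted p = 1.78e-04), and 1.54 (SE 0.0583) remained on the log2 scale after GC correction. In experiment 2 TXNRD1 had 187, 191 and 208 CPM with siNT and 235, 243 and 227 CPM with siMESH1-7002. The rise there was 1.20-fold without overlap (log2 fold change 0.27, SE 0.0495, edgeR adjusted p = 2.36e-04).

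TXNRD1 was also the only gene of the group whose promoter window held the core letters of the antioxidant response element, TGACNNNGC, searched on both strands from 250 bases before to 50 after the RefSeq start (GRCh38.p14). Of 35116 such windows 13.3% hold these letters. Of the other genes NFE2L2, KEAP1, SQSTM1, NQO1, SRXN1, OSGIN1, ABCC2 and AKR1C1 had a window without them and HMOX1 had no entry, which says only that these letters are not in these windows. The first match lies at chr12:104215670-104215698 on the strand of the gene and the second at chr12:104215761-104215789 on the opposite strand, each shown with 10 bases on either side and the matched letters in capitals.

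TXNRD1 promoter, strand of the gene: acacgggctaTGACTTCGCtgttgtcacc
TXNRD1 promoter, opposite strand: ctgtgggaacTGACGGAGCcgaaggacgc

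SRXN1 (chromosome 20, 646615 to 653370, minus strand) encodes sulfiredoxin, which repairs overoxidized peroxiredoxins. It was not called with either siRNA in the fit with TMM scaling and no GC correction. With siMESH1-7002 it had 107, 111 and 107 CPM against 108, 110.4 and 111 CPM with siNT. The groups overlapped and the log2 fold change was -0.02 (95% confidence interval -0.11 to 0.07, edgeR adjusted p = 0.740). In experiment 1 SRXN1 had 258, 238 and 245 CPM with siNT and 199, 144 and 225 CPM with siMESH1-CDS. All 3 knockdown values were below the controls, with a log2 fold change of -0.38 (95% confidence interval -0.72 to -0.05, edgeR adjusted p = 0.0823), and without siMESH1-CDS replicate 3 the gene was called lower (-0.54, edgeR adjusted p = 0.0165). It was also called lower with siMESH1-CDS when libraries were scaled by size alone (-0.63, edgeR adjusted p = 0.0349), with at least 10 counts required in every library (-0.57, edgeR adjusted p = 0.0329) and in the model of all 12 libraries (-0.54, edgeR adjusted p = 0.00326). The sign turned after GC correction, to 0.73 with siMESH1-CDS (edgeR adjusted p = 0.00163) and 0.09 with siMESH1-7002 (edgeR adjusted p = 0.0341).

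OSGIN1 (chromosome 16, 83948282 to 83966332, plus strand), a regulator of growth and cell death induced by oxidative stress, was low in all groups. It rose with siMESH1-7002, from 7.25, 5.95 and 6.63 CPM with siNT to 10.1, 10.8 and 10.2 CPM. The groups did not overlap (1.56-fold, log2 fold change 0.64, SE 0.0953, edgeR adjusted p = 2.84e-05), and the model of all 12 libraries ended the call (edgeR adjusted p = 0.108). With siNT of experiment 1 OSGIN1 had 110, 69 and 93 reads and with siMESH1-CDS 2, 0 and 8 reads, or 2.07, 1.53 and 2.00 against 0.0632, 0 and 0.230 CPM. Every knockdown library was near 0, and the fitted change of -4.24 (95% confidence interval -5.71 to -2.76, edgeR adjusted p = 0.00337) moved to -5.90 without siMESH1-CDS replicate 3 and to -3.59 without siMESH1-CDS replicate 2. After GC correction it was -0.91 (SE 0.467, edgeR adjusted p = 0.127).

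ABCC2 (chromosome 10, 99782640 to 99852594, plus strand) encodes the apical efflux pump MRP2, which exports glutathione conjugates and glucuronides. It rose with each siRNA, before and after GC correction. In experiment 2 it had 142, 144 and 146 CPM with siNT and 276, 278 and 282 CPM with siMESH1-7002. The groups were tight and far apart (1.94-fold, log2 fold change 0.96, SE 0.0419, edgeR adjusted p = 8.77e-12). In experiment 1 it had 147, 171 and 144 CPM with siNT and 361, 328 and 417 CPM with siMESH1-CDS (2.40-fold, log2 fold change 1.26, SE 0.127, edgeR adjusted p = 5.47e-04). After GC correction the changes were 1.00 with siMESH1-7002 and 0.90 with siMESH1-CDS (SE 0.131, edgeR adjusted p = 0.00143).

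**Figure D3:**
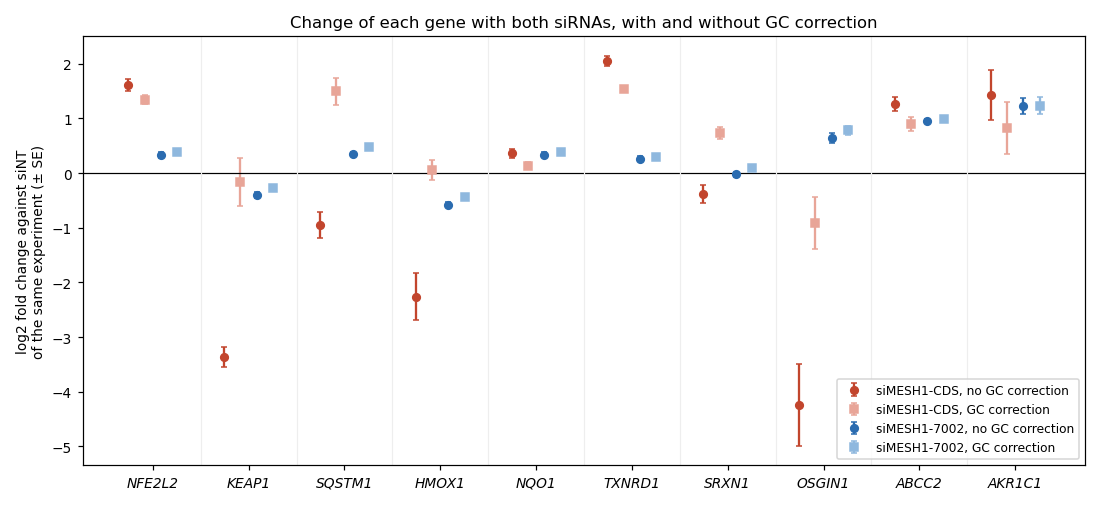
Log2 fold change of each gene against siNT of the same experiment (vertical axis, bars ± SE of the edgeR fit), for siMESH1-CDS in red and siMESH1-7002 in blue, without (circles) and with (squares) GC correction. KEAP1, SQSTM1, HMOX1, SRXN1 and OSGIN1 move upward by more than 1 log2 unit with siMESH1-CDS when GC content is corrected for, while with siMESH1-7002 both values lie close together for each gene.

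Set beside each other, NFE2L2, NQO1, TXNRD1, ABCC2 and AKR1C1 were called higher with both siRNAs, which holds for 15.5% of the 12824 genes tested with both. KEAP1 and HMOX1 were called lower with both, as 15.1% of those genes were. SQSTM1 and OSGIN1 were lower with siMESH1-CDS and higher with siMESH1-7002, as 5.65% of those genes were. Taking GC correction into account, the genes whose calls had 1 direction under both siRNAs in both fits were NFE2L2, TXNRD1 and ABCC2, all higher, as were 12.6% of the genes tested with both, and none of the 10 was lower in all of them, as 7.60% of those genes were.

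The difference between the siRNAs was tested in 1 model of all 12 libraries, as the change with siMESH1-7002 minus that with siMESH1-CDS. Each siRNA was used in only 1 experiment, so siRNA and experiment cannot be told apart in this difference. Both experiments share 1 estimate of the spread in this model (biological coefficient of variation 0.196, against 0.299 for experiment 1 alone). The SE of a difference can thus fall below that of the siMESH1-CDS change alone, as for OSGIN1 (0.523 against 0.751). Intervals may therefore be too narrow and adjusted p-values too small. The difference was called for 7 of the 10 genes, 5 with a positive and 2 with a negative difference, where 69.7% of 14154 genes were called, 39.7% positive and 30% negative. After GC correction 7 were called again, 2 positive (NQO1, OSGIN1) and 5 negative (NFE2L2, SQSTM1, HMOX1, TXNRD1, SRXN1), where 60.7% of all genes were called, 27.5% positive and 33.2% negative. NFE2L2 (-1.14, SE 0.119, edgeR adjusted p = 2.34e-05) and TXNRD1 (-1.64, SE 0.102, edgeR adjusted p = 1.12e-06) rose less with siMESH1-7002, and both differences held after GC correction, at -0.90 and -1.18. For ABCC2 the difference was -0.15 (95% confidence interval -0.42 to 0.11), for AKR1C1 -0.06 (-0.75 to 0.63) and for NQO1 0.13 (-0.07 to 0.32), and none of these was called. The other differences lay at 3.12 for KEAP1, 1.45 for SQSTM1, 1.84 for HMOX1, 0.51 for SRXN1 and 5.03 for OSGIN1. After GC correction they were -0.09, -1.09, -0.56, -0.67 and 1.72 in that order, so that only that of OSGIN1 kept its sign.

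Levels were compared between genes as RPKM, reads scaled to library size and transcript length. Among siNT libraries of experiment 1 TXNRD1 (124 ± 4.52 RPKM) and SQSTM1 (118 ± 10.7) came first with overlapping ranges, followed by SRXN1 (91.6 ± 3.87), NFE2L2 (74.7 ± 4.12), NQO1 (69.5 ± 0.915) and HMOX1 (62.5 ± 13.966), the last pair overlapping. In siNT of experiment 2 SQSTM1 (229.5 ± 1.46 RPKM) stood well above HMOX1 (78.0 ± 2.41), NFE2L2 (67.3 ± 4.22), KEAP1 (54.8 ± 2.77) and TXNRD1 (49.7 ± 2.92), and the ranges of KEAP1 and TXNRD1 overlapped. After siMESH1-CDS TXNRD1 led with 517 ± 27.3 RPKM, ahead of NFE2L2 with 229 ± 22.6. RPKM was not corrected for GC content, so the order in the siMESH1-CDS libraries also carries their GC trend. After siMESH1-7002 SQSTM1 led with 294 ± 9.95 RPKM, NFE2L2 followed with 84.6 ± 0.416, and KEAP1 (41.4 ± 1.74), SRXN1 (40.1 ± 0.868) and NQO1 (40.0 ± 0.854) were not apart in their ranges. OSGIN1 and AKR1C1 were the lowest in every group.

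Before any knockdown the 2 sets of siNT libraries already differed in these genes. The mean CPM with siNT in experiment 2 was 8.80 times that in experiment 1 for AKR1C1, 3.55 times for OSGIN1, 2.17 times for KEAP1 and 1.95 times for SQSTM1. It was 0.400 times for TXNRD1, 0.445 times for SRXN1 and 0.454 times for NQO1, and close to level for NFE2L2 (0.902), ABCC2 (0.934) and HMOX1 (1.25). OSGIN1, KEAP1 and SQSTM1 have 58.0% to 63.4% GC, and TXNRD1, SRXN1 and NQO1 have 43.6% to 53.6%. AKR1C1, with 42.4%, goes against that order. The part of GC content in these ratios was not tested. The experiments were scaled and sequenced separately, so that the experiment and any other difference between their controls cannot be told apart.

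The wider NRF2 pathway was described with 7 lists of 71 other genes. With siMESH1-7002, 21 of the 64 genes tested (32.8%) were higher and 17 (26.6%) lower, with a median log2 fold change of 0.03, against 26.6% and 26.7% and a median of 0.01 over all genes. With siMESH1-CDS, 23 of 65 (35.4%) were higher and 23 (35.4%) lower, with a median of -0.07, against 36.9% and 37.2% and a median of -0.05. After GC correction 31 (47.7%) were higher and 13 (20%) lower, with a median of 0.41, against 40.3% and 26.7% and a median of 0.17. With siMESH1-7002 the corrected fit had 31 (48.4%) higher and 14 (21.9%) lower, with a median of 0.11. All genes there had 39.4% and 23.5%, with a median of 0.08. Without GC correction these shares lie near those of all genes. In each of these fits genes of the lists went both ways. Below, changes of list genes with siMESH1-7002 are given without GC correction. Of those given as not called, the corrected fit called TXN, PRDX1, NFE2L1, ABCC1 and ABCC3 higher and MGST1 lower.

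Among 19 partners and regulators of NRF2, 7 were higher and 4 lower with siMESH1-7002 (all genes 26.6% and 26.7%), and 6 higher and 9 lower with siMESH1-CDS (all genes 36.9% and 37.2%), or 10 and 5 after GC correction (all genes 40.3% and 26.7%). CUL3, the ligase scaffold that KEAP1 serves, stayed under the threshold with siMESH1-7002 (0.04, edgeR adjusted p = 0.565) and rose with siMESH1-CDS (1.24, or 0.40 after GC correction). NFE2L1, the related factor NRF1, was not called with siMESH1-7002 (0.08) and had -1.44 with siMESH1-CDS, or 0.09 and no call after correction. GSK3B, a kinase that marks NRF2 for degradation, rose by 0.27 with siMESH1-7002 and stood at 0.06 with siMESH1-CDS (not called, or -0.25 and called after correction). PARK7, which encodes DJ-1, fell with each siRNA (-0.14 for siMESH1-7002, -0.82 for siMESH1-CDS, the latter -1.15 after correction).

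The glutathione list (15 genes, of which 12 were tested with siMESH1-7002 and 13 with siMESH1-CDS) had 3 higher and 3 lower with siMESH1-7002, where all genes had 26.6% and 26.7%. It had 6 higher and 3 lower with siMESH1-CDS (all genes 36.9% and 37.2%), or 6 and 2 after GC correction (all genes 40.3% and 26.7%). Glutathione reductase, GSR, fell with siMESH1-7002 (-0.41) and was not called with siMESH1-CDS (0.01, or 0.03 after correction). GPX4, the peroxidase that removes lipid hydroperoxides, rose with siMESH1-7002 (0.20) and fell with siMESH1-CDS (-4.78, or -1.80 after correction). The glutathione transferase gene GSTP1 fell with each siRNA (-0.51 and -4.50, the latter -1.35 after correction), and MGST1 was not called with siMESH1-7002 (-0.04) and rose with siMESH1-CDS (1.36, or 0.56 after correction).

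Of the 4 other thioredoxin pathway genes 2 rose and none fell with siMESH1-7002, when 26.6% of all genes were called higher and 26.7% lower. These were PRDX6, a peroxiredoxin (0.13), and SESN2, a stress-induced sestrin (0.57), while TXN and PRDX1 stood at 0.08 and 0.05 without a call. The fit with GC correction called all 4 higher with siMESH1-7002, where 39.4% of all genes were higher. With siMESH1-CDS TXN (0.45) and PRDX6 (0.91) rose, PRDX1 was at 0.01 and SESN2 fell (-1.14). After GC correction PRDX1 (0.57), PRDX6 (0.59) and SESN2 (1.58) were called higher and TXN stood at -0.14 without a call. With siMESH1-CDS the shares of all genes were 36.9% higher and 37.2% lower before and 40.3% and 26.7% after correction. In the NADPH list, set beside the same shares for each siRNA, 2 of 6 rose and 2 fell with siMESH1-7002 (all genes 26.6% and 26.7%). TKT, the transketolase of the pentose phosphate pathway, rose (0.24), whereas the NADPH-forming enzymes ME1 (-0.29) and IDH1 (-0.66) fell. With siMESH1-CDS 2 of 6 were higher and 4 lower (2 and 2 after GC correction). There TKT was lower (-2.77) and ME1 (1.21) and IDH1 (1.27) were higher, and after correction TKT was at -0.88 without a call while ME1 (0.41) and IDH1 (0.71) stayed higher.

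Of 8 iron and heme genes 3 rose and 4 fell with siMESH1-7002 (all genes 26.6% and 26.7%), and 1 rose and 3 fell with siMESH1-CDS (all genes 36.9% and 37.2%), or 2 and 3 after GC correction (all genes 40.3% and 26.7%). The ferritin chains FTH1 and FTL, which store iron, rose with siMESH1-7002 (0.49 and 0.66, edgeR adjusted p = 7.27e-08 and 1.025e-09), while HMOX1 fell. With siMESH1-CDS FTH1 was not called (-0.22, or -0.0020 after correction) and FTL was lower (-2.51, or -0.97 after correction). Biliverdin reductase A, BLVRA, which acts after heme oxygenase, fell with each siRNA (-0.42 and -0.43, the latter 0.11 and not called after correction). The heme transporter gene SLC48A1 fell with siMESH1-7002 (-0.49) and was not called with siMESH1-CDS (-1.05, or 0.90 and still not called after correction).

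In the quinone, carbonyl and conjugation list (15 genes, 12 tested) 4 rose and 3 fell with siMESH1-7002 (all genes 26.6% and 26.7%). With siMESH1-CDS 6 rose and 2 fell (all genes 36.9% and 37.2%), and after GC correction 7 were higher and 0 lower (all genes 40.3% and 26.7%). AKR1B1, aldose reductase, fell with siMESH1-7002 (-0.51) and was not called with siMESH1-CDS (-1.06, or -0.14 after correction). UGDH, which makes the donor for glucuronidation, rose with each siRNA (0.45 and 1.40, the latter 0.66 after correction), and UGT1A6 was not called with siMESH1-7002 (-0.10) and rose with siMESH1-CDS (1.10, or 0.66 after correction). UGT1A6 shares exons with the other UGT1A genes, so that its counts are uncertain. Among efflux pumps other than ABCC2, ABCC4 fell with siMESH1-7002 (-1.08, edgeR adjusted p = 3.70e-11) and was at -0.09 with siMESH1-CDS (-0.71 and called after correction). ABCC1 and ABCC3 were not called with siMESH1-7002 (-0.03 and 0.06), ABCC1 fell with siMESH1-CDS (-1.63, or -0.12 and no call after correction), ABCC3 was not called there (-0.67, or 1.00 and called after correction), and ABCG2 was too low to test.

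**Figure D4:**
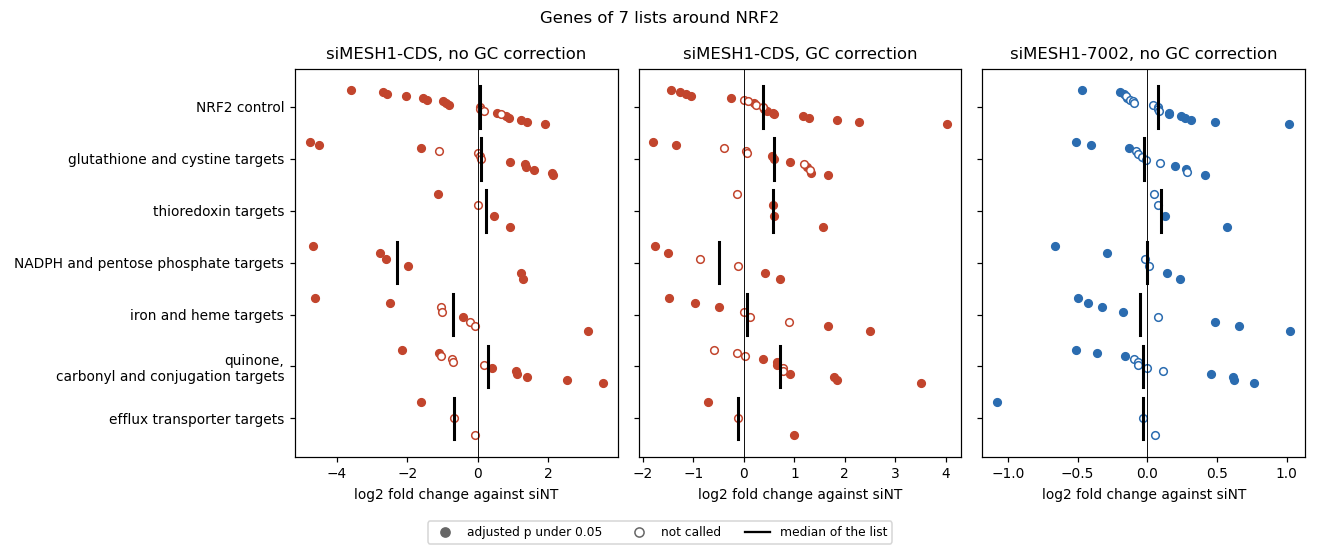
Log2 fold change against siNT (horizontal axis, of different width in each panel) of the genes of 7 lists around NRF2, with siMESH1-CDS without and with GC correction (left and middle, red) and siMESH1-7002 (right, blue). Filled points passed an adjusted p of 0.05, open points did not, and vertical bars are medians of each list, all of which hold genes on both sides of 0 with siMESH1-7002 except the thioredoxin list.

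The genes whose pattern was most like that of NFE2L2 over the 12 libraries, as Pearson correlation of log2 CPM minus the siNT mean of the same experiment among 9709 genes, were HNMT, CIR1 and GAREM (r = 1.00 each). Their log2 fold changes were 1.95, 1.47 and 3.30 for siMESH1-CDS and 0.41, 0.28 and 0.74 for siMESH1-7002. Most like KEAP1 were MTSS1L, WNT7B and ACAD9 (r = 1.00 each), with changes of -2.27, -4.45 and -1.30 with siMESH1-CDS and -0.35, -0.71 and -0.07 with siMESH1-7002. These correlations share their libraries and the GC trend of the siMESH1-CDS libraries, and GC content was 35.0% to 43.2% for the genes like NFE2L2 and 53.3% to 64.4% for those like KEAP1.

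The 3'UTRs of HMOX1 and SRXN1 each hold 1 match to the 7 seed letters of siMESH1-CDS shown above and that of AKR1C1 holds 2, as 15.5% of genes tested hold at least 1. The 3'UTR of 1 transcript per gene was searched. It has 5541 bases for AKR1C1 and 324 to 2099 for the other genes, and its length was not taken into account. No 3'UTR of the 10 genes holds the seed letters of siMESH1-7002, which 5.50% of genes tested have. Whether these matches bear on the changes was not tested.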

How the data were processed

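Per the labels, the authors aligned single-end reads with HISAT2 to hg19 and counted them per gene with HTSeq, and the deposited files hold whole-number counts, not normalized. Entries that name no gene were left out (39.4% to 49.3% of all reads for experiment 1, 38.9% to 42.3% for experiment 2). The deposited DESeq2 tables hold the authors' own comparisons and were not used. Counts were fitted with edgeR 4.0.16 (R 4.3.3) in each experiment, with filterByExpr, TMM scaling and glmQLFTest, and CPM are TMM-scaled within an experiment. GC content, transcript lengths, gene positions and 3'UTRs come from GENCODE release 29 (GRCh38), matched by symbol (21258 of 23710 by name, 1099 by an older or newer symbol, 1353 not), and promoter sequences from RefSeq (GRCh38.p14). The GC correction used a lowess smooth with a span of 0.3 and a prior count of 1, and 96.7% and 96.8% of genes tested had a GC value. Alternatives were DESeq2 1.42.0, scaling by library size, 2 other count filters, GC correction, a replicate block, a lane term, a model of all 12 libraries, a threshold of 0.01 and leaving out each library. The code was tested on simulated counts. The genes and lists were chosen with earlier results of these data known. All 10 genes, HDDC3, AKR1C2, AKR1C3, the 4 genes of highest mean CPM in each list and the 3 most alike genes for NFE2L2 and KEAP1 are named, except for a result that is not reported here. The labels call the libraries biological replicates and say no more on how the cultures were separated, so p-values measure the spread between these libraries.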

Additional observations from a re-analysis of the deposited data

Results flagged for a closer look

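For 7 genes the change with siMESH1-7002 differed from that with siMESH1-CDS by the test of the difference itself (edgeR quasi-likelihood test on all 12 libraries). The siRNA and the experiment cannot be told apart in this difference, and both experiments share 1 estimate of the spread. On the log2 scale, as siMESH1-7002 minus siMESH1-CDS, the difference was -1.14 for NFE2L2 and -1.64 for TXNRD1, both of which rose with each siRNA. It was 3.12 for KEAP1 and 1.84 for HMOX1, which were lower with each siRNA, and 1.45 for SQSTM1 and 5.03 for OSGIN1, which were lower with siMESH1-CDS and higher with siMESH1-7002. For SRXN1 it was 0.51 (edgeR adjusted p = 0.0317), and DESeq2 or leaving out any one of siNT replicate 1 or 3 or siMESH1-CDS replicate 1 of experiment 1 or 5 of the libraries of experiment 2 lifted its adjusted p above the threshold, to between 0.0501 and 0.0667. Called in the same test were 69.7% of all genes. After GC correction the difference of KEAP1 was -0.09 and not called (edgeR adjusted p = 0.879) and that of HMOX1 turned to -0.56, and neither gene was called lower with siMESH1-CDS. The differences of SQSTM1 and SRXN1 turned as well, to -1.09 and -0.67. The 5 genes with positive differences have 53.6% to 63.4% GC, and NFE2L2 and TXNRD1 have 45.6% and 43.6%. The part of GC content in single differences was not tested beyond the corrected values.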

How the results depend on the processing

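Under GC correction, and under the replicate block with GC correction, 5 of the 10 genes were called with siMESH1-CDS in place of 9 (67% and 59.2% of all genes, in place of 74.1%). Changes with siMESH1-CDS that turned sign under these 2 settings were those of SQSTM1 (1.50 and 1.44), HMOX1 (0.0513 and 0.0511) and SRXN1 (0.73 and 0.72), and with siMESH1-7002 that of SRXN1 (0.0923 and 0.0918). Differences between the siRNAs that turned sign were those of SQSTM1 (-1.09 and -1.02), HMOX1 (-0.56 and -0.57), SRXN1 (-0.67 and -0.66), ABCC2 (0.16 and 0.17) and AKR1C1 (0.48 and 0.49), and with GC correction alone that of KEAP1 (-0.0863). The difference of AKR1C1, near 0, also turned with library size scaling (0.0419) and without siNT-CDS replicate 3, siMESH1-CDS replicate 3 or siNT-7002 replicate 2, within a range of -0.42 to 0.28 over single libraries left out. The cause of these turns was not tested. Leaving out single libraries gave 7 to 9 genes called with siMESH1-CDS, 9 to 9 with siMESH1-7002 and 6 to 7 for the difference. Of all genes, these fits called 60.5% to 81.3%, 45.6% to 61% and 63.2% to 77.6% in that order. Correlations of same-numbered deviations were -0.09, 0.34 and 0.21 in experiment 1 and -0.11, 0.03 and -0.11 in experiment 2. Unlike-numbered ones lay between -0.37 and 0.28 in experiment 1 and between -0.10 and 0.19 in experiment 2. With 3 libraries per group these values cannot settle whether replicate numbers pair the libraries. With the replicate block, 8, 9 and 7 genes were called in the same order (69.2%, 51.4% and 66.3% of all genes), and of the calls with a single siRNA only that of AKR1C1 with siMESH1-CDS was lost. The 12-library model called 6 of the 10 genes with siMESH1-7002, where it called 18.2% of all genes. Depth limits AKR1C1 and OSGIN1 in experiment 1. Of the single-gene values recomputed under all alternatives, 128 of 158 with siMESH1-CDS, 145 of 150 with siMESH1-7002 and 161 of 188 for the difference kept their direction and their side of the threshold. Requiring 10 counts in every library left AKR1C1 and OSGIN1 with siMESH1-CDS without a value.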
